A study of Mus musculus with 16 samples.

Results

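Insulin-like growth factor 1 (IGF-1), its receptor and its binding proteins were followed in the lumbar spinal cord of mice with the SOD1G93A transgene and a deletion of Atg7. The 9 genes are Igf1, Igf1r, Igfbp2, Igfbp3, Igfbp4, Igfbp5, Igfbp6, Igfbp7 and Igfbpl1, taken by symbol from the 23284 rows of the deposited count table, and all 9 were found. They were chosen by name, with their levels in these same 4 groups already known. Their levels and differences are therefore given below as a description with no p-value, and counts of them that passed a threshold support nothing by themselves.

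Lumbar cords were taken at 150 days of age from 16 mice, 4 to a group and biological replicates per the series' design text, and their RNA was sequenced. Mice of the group cKO_SOD1 carried the genotype Atg7 cKO together with SOD1G93A, and mice of cWT_SOD1 carried Atg7 cWT together with SOD1G93A. The groups cKO and cWT had the same Atg7 genotypes without the transgene. cKO is read here as conditional knockout and cWT as its wild-type counterpart, since the labels do not spell them out. Atg7 encodes an enzyme needed to form autophagosomes, and SOD1G93A is a mutant form of human superoxide dismutase 1 used as a mouse model of amyotrophic lateral sclerosis. The series' title places the loss of autophagy in motor neurons, while the labels name neither the Cre driver, the deleted exons nor the promoter of the transgene. A deletion restricted to a few cells limits what a whole-cord measurement can show of it.

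IGF-1 is a secreted growth factor that liver releases under growth hormone and that glia, among them microglia, make inside the nervous system. It acts through the receptor tyrosine kinase IGF1R, which signals through insulin receptor substrates to PI3K, AKT and mTOR and through SHC and GRB2 to RAS and MAP kinases. Most IGF outside cells is held by binding proteins, which lengthen its life, keep it from the receptor, or release it locally when proteases cut them.

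The promoter sequences of 4 binding-protein genes are shown because Igfbp2, Igfbp3, Igfbp5 and Igfbp7 were all high in the same group of libraries. They were taken from RefSeq in the build GRCm38.p6, where 8 of the 9 genes were matched (Igfbpl1 was not). Each run is on the gene's own strand, ends at the base before the first annotated exon and holds at most 250 bases. Igfbp2 is at chr1:72824230-72824479 on the plus strand, Igfbp3 at chr11:7213924-7214173, Igfbp5 at chr1:72874885-72875115 and Igfbp7 at chr5:77408046-77408295, the last 3 on the minus strand. Capitals mark GGGCGG on either strand (the GC box, read as CCGCCC on the other strand) and TATTTAA (a variant of the TATA box, searched after the Igfbp5 sequence had been seen). A run of alternating T and A near the end of the Igfbp3 window was not searched for and is unmarked.
Igfbp2: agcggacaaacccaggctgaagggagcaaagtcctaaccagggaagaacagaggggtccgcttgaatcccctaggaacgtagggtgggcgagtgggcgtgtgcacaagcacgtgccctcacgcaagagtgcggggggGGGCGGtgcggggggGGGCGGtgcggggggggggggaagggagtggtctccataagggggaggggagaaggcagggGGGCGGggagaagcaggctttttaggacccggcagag
Igfbp3: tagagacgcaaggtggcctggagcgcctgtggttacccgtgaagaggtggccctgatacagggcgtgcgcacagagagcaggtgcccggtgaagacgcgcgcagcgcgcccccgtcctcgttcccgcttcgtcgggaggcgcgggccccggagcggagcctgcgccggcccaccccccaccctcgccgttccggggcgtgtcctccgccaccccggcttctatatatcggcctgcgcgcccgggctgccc
Igfbp5: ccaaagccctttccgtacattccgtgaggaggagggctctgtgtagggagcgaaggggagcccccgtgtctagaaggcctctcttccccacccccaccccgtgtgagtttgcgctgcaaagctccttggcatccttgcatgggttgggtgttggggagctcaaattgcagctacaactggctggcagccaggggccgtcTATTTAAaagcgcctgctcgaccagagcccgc
Igfbp7: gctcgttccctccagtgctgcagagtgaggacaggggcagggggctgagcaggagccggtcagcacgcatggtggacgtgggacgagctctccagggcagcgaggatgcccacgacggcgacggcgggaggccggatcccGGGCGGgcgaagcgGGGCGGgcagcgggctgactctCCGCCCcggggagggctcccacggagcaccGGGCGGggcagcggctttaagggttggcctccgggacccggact
RefSeq also lists a start of Igfbp2 further along, whose shorter window (chr1:72825137-72825321, not printed) held neither a GC box nor TGANTCA. The full 250 bases from the same position held 1 TGANTCA, which reached into annotated exon sequence. The printed Igfbp2 window held 3 GC boxes and the Igfbp7 window 4, of which 1 lay on the other strand, while those of Igfbp3 and Igfbp5 held 0. Over 32851 mouse promoter windows of 250 bases, 32.7% held a GC box and 4.18% held TATTTAA on either strand. TATAAA was in none of these 4 windows and in 12.4% of all windows, and TGANTCA, the core that AP-1 factors bind, was in none of the 4 printed windows and in 6.75% of all. None of the matches overlapped another. Counted over the full 250 bases, CpG pairs numbered 14 in the Igfbp2 window, 32 in Igfbp3, 10 in Igfbp5 and 26 in Igfbp7, beside a median of 6 over all windows. None of these motifs was thus in all 4 printed windows, which says nothing about the factors that bind them.

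Library totals ran from 14989026 to 20892530 counts, and each group held 2 males and 2 females, read from the counts of sex-linked genes. Levels are given as CPM, the counts divided by the TMM-scaled library size, and comparisons between genes use the deposited FPKM, which is also scaled to transcript length. Atg7 ranged over 20.4 to 29.6 CPM in cKO_SOD1, 20.8 to 30.3 in cWT_SOD1, 26.4 to 28.8 in cKO and 29.7 to 35.1 in cWT, so a whole-cord count did not check the deletion. Mouse Sod1, at 101 to 112 CPM in cKO_SOD1 and 106 to 126 CPM in cWT_SOD1 against 113 to 126 CPM in cKO and 109 to 129 CPM in cWT, is not the transgene. Markers of neurons, oligodendrocytes and astrocytes were present in every library, as in spinal cord, and skeletal muscle markers summed to at most 2.66 CPM. Replicate 1 of cWT_SOD1 stood apart most. It was the lowest of its group for 8 of the 9 genes. It had 2321 CPM of summed microglial markers against 3146 to 3856 in the other 3 libraries, and 6290 CPM of summed neuronal markers against 4238 to 5701. The fold changes of Igf1 and of each binding protein that rest on cWT_SOD1 are given with and without it. No pathway gene named here lost its call without it. Other libraries also sat at 1 end of their group. Replicate 2 of cKO and replicate 2 of cWT were each the lowest for 6 of the 9 genes, and replicate 1 of cKO_SOD1 was the highest for 6. The last had 194 CPM of summed Schwann cell markers, against 86.6 to 96.2 CPM in the rest of cKO_SOD1.

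Igf1 (chromosome 10, 87321801 to 87399792 in mm9), the ligand, was high in cWT_SOD1 and, by less, above the groups without the transgene in cKO_SOD1. Its level was 17.0, 14.2, 14.6 and 14.7 CPM in the cKO_SOD1 libraries and 17.6, 49.4, 43.5 and 58.6 CPM in the cWT_SOD1 libraries. It was 9.77, 8.44, 8.76 and 9.65 CPM in cKO and 8.55, 8.74, 10.2 and 11.8 CPM in cWT. All 4 libraries of each transgenic group lay above all 8 without the transgene. Such a lack of overlap was common. Of all genes tested, 56.6% had none for cWT_SOD1 against cWT, 20.9% for cKO_SOD1 against cKO and 49.1% for cKO_SOD1 against cWT_SOD1. These shares also stand beside the genes below. The lowest cWT_SOD1 library, replicate 1, was close to the highest cKO_SOD1 library, and the other 3 were at 43.5 CPM or above. The fitted log2 fold change was 2.10 (SE 0.25) for cWT_SOD1 against cWT, or 4.30-fold, and 5.17-fold without replicate 1. For cKO_SOD1 against cKO it was 0.72 (SE 0.25), or 1.65-fold, and for cKO_SOD1 against cWT_SOD1 it was −1.48 (SE 0.24), 2.80-fold lower, or 3.35-fold lower without replicate 1. Between cKO and cWT it was −0.10 (SE 0.26). In whole cord, more cells of a type and more RNA per cell cannot be told apart.

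**Figure D1:**
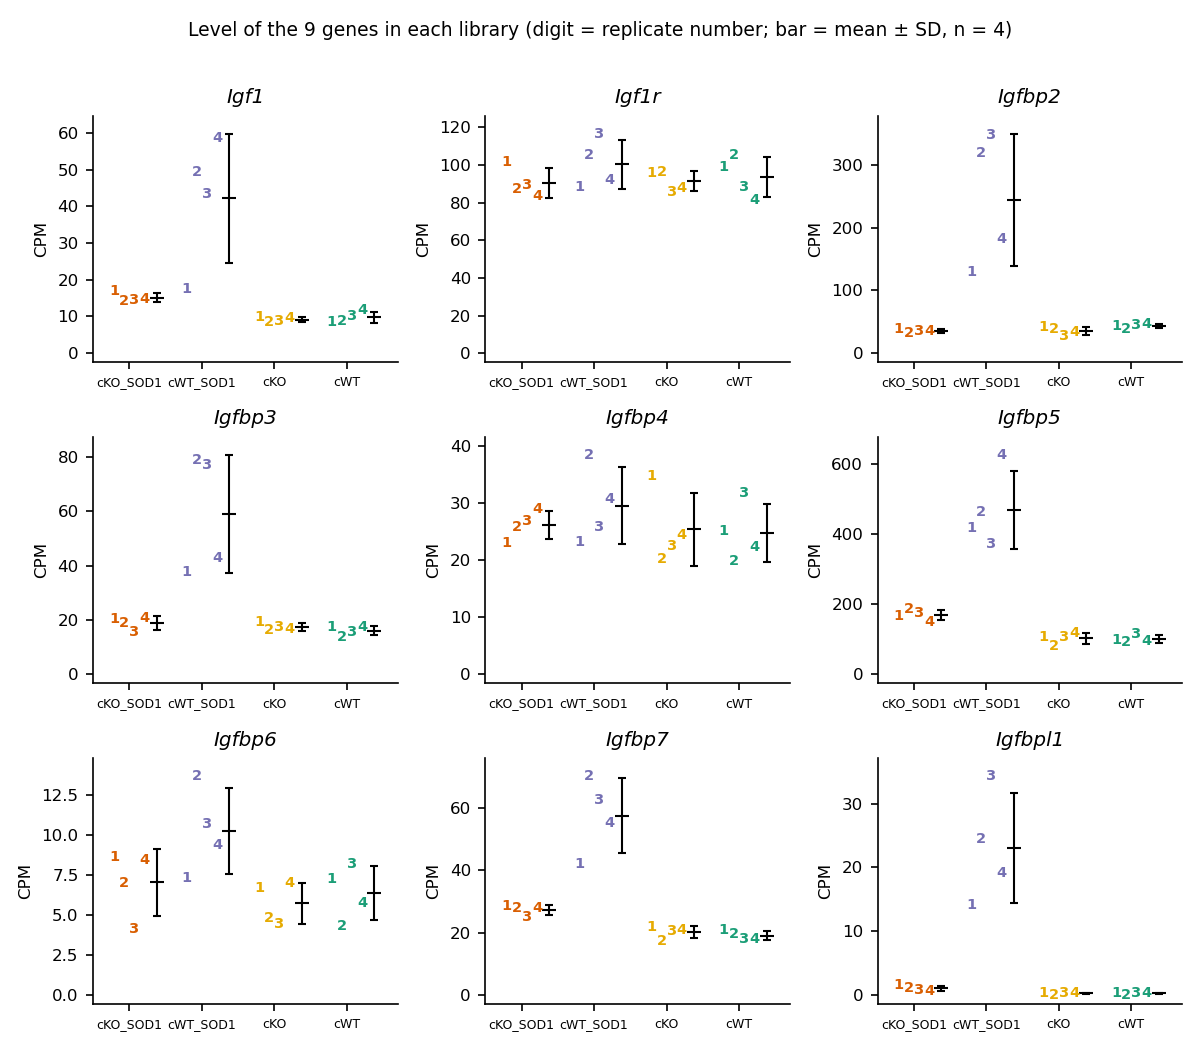
Level of each of the 9 genes in CPM (y axes, linear, different ranges) by group (x axes); each digit is 1 library at its replicate number and each black bar is the mean ± SD of 4 libraries. cWT_SOD1 stands above the other groups for Igf1, Igfbp2, Igfbp3, Igfbp5, Igfbp7 and Igfbpl1, with replicate 1 at 17.6 CPM of Igf1 against 43.5 to 58.6 CPM in the other 3, and the 4 groups overlap for Igf1r and Igfbp4.

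Igf1r (chromosome 7, 75097143 to 75378553), the receptor kinase that binds both IGF-1 and IGF-2, differed little between groups. It stood at 102, 87.1, 89.6 and 83.7 CPM in cKO_SOD1 and at 88.1, 105, 117 and 92.2 CPM in cWT_SOD1. The libraries without the transgene gave 95.8, 96.2, 85.6 and 88.1 CPM in cKO and 99.0, 105, 88.5 and 81.3 CPM in cWT. All 4 groups overlapped, and the fitted log2 fold changes were 0.11 (SE 0.09) for cWT_SOD1 against cWT, −0.01 (SE 0.09) for cKO_SOD1 against cKO and −0.15 (SE 0.09) for cKO_SOD1 against cWT_SOD1, the last being −0.21 without replicate 1 of cWT_SOD1. On the length-scaled measure the cWT_SOD1 libraries had 2.67, 10.8, 8.60 and 11.8 FPKM of Igf1 and 7.74, 8.94, 9.87 and 7.78 FPKM of Igf1r. By FPKM the ligand was thus above the receptor in replicates 2 and 4 and below it in replicates 1 and 3. Igf1 had more FPKM per CPM in replicates 2 to 4 of cWT_SOD1 than in cWT. Replicate 2 of cWT_SOD1 had 10.8 FPKM at 49.4 CPM, and replicate 2 of cWT had 1.26 FPKM at 8.74 CPM. The order of ligand and receptor depends on this shift, whose cause was not tested. In cWT the receptor had 7.75 ± 0.93 FPKM and the ligand 1.41 ± 0.21 FPKM (SD, n = 4 in each group).

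Igfbp2 (chromosome 1, 72871054 to 72899045), a binding protein that also carries an integrin-binding sequence, was high in cWT_SOD1, whereas cKO_SOD1 was level with cKO and below every library of cWT. The level was 38.1, 31.6, 35.7 and 35.6 CPM in cKO_SOD1 and 130, 318, 348 and 182 CPM in cWT_SOD1. It was 41.8, 38.5, 27.5 and 33.1 CPM in cKO and 43.6, 39.0, 44.6 and 46.9 CPM in cWT. The cWT_SOD1 libraries were all above every other library and spread over a wide range, while cKO_SOD1 fell inside the range of cKO. The fitted difference was 2.49 (SE 0.23) on the log2 scale for cWT_SOD1 against cWT, or 5.62-fold, and 6.53-fold without replicate 1. For cKO_SOD1 against cWT_SOD1 it was −2.80 (SE 0.24), or 6.94-fold lower (8.04-fold without replicate 1 of cWT_SOD1), and for cKO_SOD1 against cKO it was 0.00 (SE 0.23).

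Igfbp3 (chromosome 11, 7106096 to 7113926), the main carrier of IGF in blood, showed a like pattern at a lower level. Its cKO_SOD1 libraries had 20.3, 19.0, 15.4 and 20.8 CPM and its cWT_SOD1 libraries 37.8, 78.8, 77.1 and 42.8 CPM. In cKO it was at 19.3, 16.3, 17.2 and 16.5 CPM and in cWT at 17.5, 13.9, 15.4 and 17.6 CPM. Within cWT_SOD1 the libraries fell into a higher pair, replicates 2 and 3, and a lower pair, replicates 1 and 4, and Igfbp2 divided the same 4 libraries in the same way. The log2 fold change was 1.88 (SE 0.20) for cWT_SOD1 against cWT, 3.68-fold, and −1.65 (SE 0.19) for cKO_SOD1 against cWT_SOD1, 3.15-fold lower. Without replicate 1 of cWT_SOD1 these were 4.14-fold and 3.53-fold lower. It was 0.12 (SE 0.20) for cKO_SOD1 against cKO, whose libraries overlapped.

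Igfbp5 (chromosome 1, 72904639 to 72921439), a binding protein that attaches to extracellular matrix, lies 5593 bases from Igfbp2 in mm9. It had 166, 185, 175 and 150 CPM in cKO_SOD1 and 416, 462, 372 and 626 CPM in cWT_SOD1. In cKO it had 106, 80.8, 106 and 118 CPM and in cWT 96.3, 92.3, 116 and 93.7 CPM. Both transgenic groups lay wholly above the groups without the transgene, and cWT_SOD1 wholly above cKO_SOD1. The shares of all genes without overlap are given with Igf1. The log2 fold change was 2.24 (SE 0.14) for cWT_SOD1 against cWT, or 4.72-fold, 0.72 (SE 0.14) for cKO_SOD1 against cKO, or 1.65-fold, and −1.47 (SE 0.14) for cKO_SOD1 against cWT_SOD1, 2.77-fold lower. Without replicate 1 of cWT_SOD1 the first was 4.93-fold and the last 2.89-fold lower. The order of the cWT_SOD1 libraries was not that of its neighbour, since Igfbp5 was highest in replicate 4 and lowest in replicate 3, where Igfbp2 was highest. In cKO_SOD1 Igfbp5 was above cKO while Igfbp2 was not.

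Igfbp7 (chromosome 5, 77778265 to 77837070), a relative of the family that binds IGF weakly, had 28.6, 27.8, 24.9 and 27.9 CPM in cKO_SOD1 and 42.1, 70.3, 62.5 and 55.1 CPM in cWT_SOD1. It had 21.8, 17.3, 20.5 and 21.0 CPM in cKO and 20.9, 19.7, 17.9 and 17.8 CPM in cWT. The 2 transgenic groups were again wholly above the others and apart from each other. The log2 fold change was 1.59 (SE 0.12) for cWT_SOD1 against cWT, 3.01-fold, and 0.44 (SE 0.12) for cKO_SOD1 against cKO, 1.35-fold. It was −1.08 (SE 0.12) for cKO_SOD1 against cWT_SOD1, 2.11-fold lower. Without replicate 1 of cWT_SOD1 the first was 3.30-fold and the last 2.30-fold lower.

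Igfbpl1 (chromosome 4, 45822379 to 45839699), named for its likeness to the binding proteins, had very few counts without the transgene. It had 28, 20, 18 and 14 counts in the cKO_SOD1 libraries and 230, 438, 607 and 288 counts in the cWT_SOD1 libraries. The cKO libraries gave 5, 1, 6 and 8 counts and the cWT libraries 6, 1, 5 and 7 counts. The gene passed the filter on low counts only through the transgenic libraries, so it had to differ, and its ratios are given with counting intervals. The summed 1563 counts of cWT_SOD1 against 19 of cWT gave a depth-scaled ratio of 89.9 (95% interval for counting error, 57.4 to 149.7). The fitted log2 fold change of that comparison was 6.44, and 6.62 without replicate 1 of cWT_SOD1. In another setting it was as low as 3.15. The 80 counts of cKO_SOD1 against 20 of cKO gave a ratio of 3.92 (2.38 to 6.76).

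The remaining binding proteins varied less. Igfbp4 (chromosome 11, 98902574 to 98913957), an inhibitor of IGF action that the protease encoded by Pappa cuts, overlapped in all groups, with 23.0 to 28.8 CPM in cKO_SOD1, 23.2 to 38.5 in cWT_SOD1, 20.1 to 34.7 in cKO and 19.8 to 31.7 in cWT. Its largest log2 fold change in the 4 two-group comparisons was 0.25 (SE 0.18), for cWT_SOD1 against cWT, and 0.36 without replicate 1 of cWT_SOD1. Igfbp6 (chromosome 15, 101974617 to 101979943), which prefers IGF-2, had 4.10 to 8.61 CPM in cKO_SOD1 and 7.32 to 13.7 in cWT_SOD1 against 4.43 to 6.97 in cKO and 4.28 to 8.17 in cWT. Its log2 fold change was 0.69 (SE 0.24) for cWT_SOD1 against cWT and −0.55 (SE 0.24) for cKO_SOD1 against cWT_SOD1, and in both comparisons the groups overlapped. Without replicate 1 of cWT_SOD1 the values were 0.83 and −0.69. Igfbp1, which lies 3546 bases from Igfbp3 in mm9, had 10 counts over all 16 libraries, and Igfals, whose product joins IGF and IGFBP3 in blood, had 30.

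**Figure D2:**
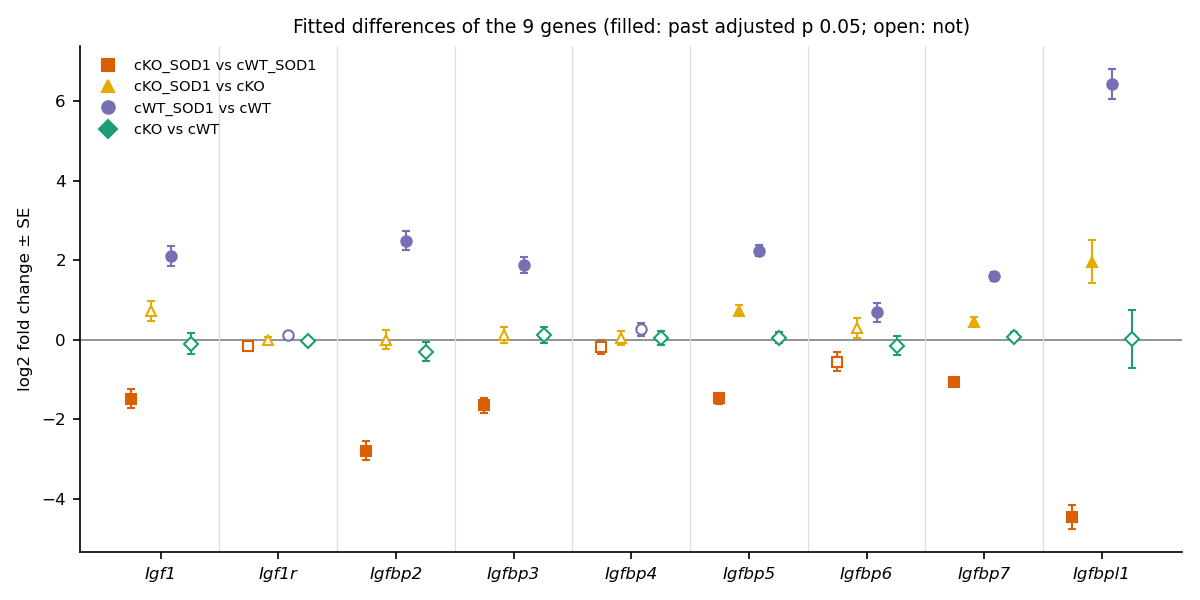
Fitted log2 fold change ± SE (y axis) of each of the 9 genes (x axis) in 4 comparisons, the first-named group over the second; filled symbols passed an adjusted p of 0.05 over all genes and open ones did not. Igfbp2 has 2.49 for cWT_SOD1 against cWT beside 0.00 for cKO_SOD1 against cKO, and Igf1r and all the differences between cKO and cWT lie near 0.

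The fit over 15426 genes was used to set these differences beside the rest of the transcriptome. For cWT_SOD1 against cWT 7 of the 9 genes passed an adjusted p of 0.05 in the higher direction, all but Igf1r and Igfbp4, where 33.2% of all genes tested passed as higher and 33.1% as lower. Their median log2 fold change was 1.88, beside 0.01 for all genes. For cKO_SOD1 against cKO the 3 that passed, Igfbp5, Igfbp7 and Igfbpl1, were higher, where 4.80% of all genes were higher and 2.48% lower, and the median was 0.28. For cKO against cWT none passed with edgeR, with DESeq2 or at an unadjusted p under 0.05, and 0.0259% of all genes (4 genes) passed in either direction. For cKO_SOD1 against cWT_SOD1 6 passed as lower (Igf1, Igfbp2, Igfbp3, Igfbp5, Igfbp7 and Igfbpl1), where 29.1% of all genes passed in the lower and 29.1% in the higher direction. The interaction, the transgene difference in cKO minus that in cWT, was past the threshold and negative for the same 6 genes, where 21.8% of all genes were lower and 23.2% higher. Nothing is read from these counts, because the genes were chosen from the same contrasts. Igfbpl1, which is in each of them but that for cKO against cWT, also passed the filter only through the transgenic libraries.

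A few of these calls moved with the analysis. Igf1 in cKO_SOD1 against cKO did not pass although its groups did not overlap, which 20.9% of all genes shared in that comparison, and it passed with DESeq2, with limma-voom weighted by group, with the 8 libraries alone and without replicate 1 of cWT_SOD1. Igfbp7 and Igfbpl1 in the same comparison lost their calls in 7 and 6 of the 16 fits that left out 1 library, Igfbp7 also with a replicate block, and Igfbpl1 also on log2(FPKM + 1). Igfbp6 lost its call for cWT_SOD1 against cWT without replicate 2 of either group.

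The genes fell into 2 patterns under the transgene with the Atg7 deletion. Igfbp2 and Igfbp3 stood at the level of cKO, with interaction log2 fold changes of −2.49 (SE 0.33) and −1.76 (SE 0.28). In CPM, Igf1, Igfbp5 and Igfbp7 in cKO_SOD1 lay between cKO and cWT_SOD1 with no overlap on either side. Their interactions were −1.38 (SE 0.35) for Igf1, −1.52 (SE 0.20) for Igfbp5 and −1.15 (SE 0.17) for Igfbp7. Igfbpl1 lay there too, but it passed the filter only through the transgenic libraries and is not counted in the pattern. Its interaction was −4.48 (SE 0.87), with too few counts without the transgene for its size to be read. It ran from −4.81 with 1 library left out to −2.78 in another setting. Of all genes, 20.9% had no overlap for cKO_SOD1 against cKO and 49.1% for cKO_SOD1 against cWT_SOD1. In FPKM, Igf1 of the transgenic groups overlapped, with 2.91 in replicate 1 of cKO_SOD1 and 2.67 in replicate 1 of cWT_SOD1. Without replicate 1 of cWT_SOD1 the 6 interactions were −2.70 for Igfbp2, −1.93 for Igfbp3, −1.64 for Igf1, −1.57 for Igfbp5, −1.28 for Igfbp7 and −4.66 for Igfbpl1. Whether the 2 patterns differ was not tested.

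Because FPKM is scaled to length, the 6 genes Igfbp2 to Igfbp7 could be added to give the amount of binding-protein mRNA in a library. The sum was 123 ± 2.93 FPKM in cKO_SOD1 and 422 ± 110 FPKM in cWT_SOD1, against 98.1 ± 10.3 FPKM in cKO and 103 ± 7.20 FPKM in cWT (SD, n = 4 in each). The 4 cWT_SOD1 libraries spread from 286 FPKM in replicate 1 to 517 FPKM in replicate 2, with a mean of 468 ± 76.2 FPKM over the 3 libraries without replicate 1, and the cKO_SOD1 libraries from 119.7 to 126.7 FPKM. The make-up differed as well as the sum. Igfbp2 gave 25.7 ± 1.86% of it in cKO_SOD1 and 50.3 ± 9.51% in cWT_SOD1, against 31.4 ± 4.62% in cKO and 36.9 ± 2.16% in cWT. Igfbp5 gave 24.4 ± 2.60% in cKO_SOD1 and 21.2 ± 7.93% in cWT_SOD1, against 18.2 ± 2.59% in cKO and 16.7 ± 1.14% in cWT. Igfbp2 thus made up most of the sum in replicates 2 and 3 of cWT_SOD1, at 55.1% and 61.3%, while replicate 4 had 42.6% Igfbp2 and 29.1% Igfbp5. Set against Igf1, the sum was 53.1 ± 6.50 times its FPKM in cKO_SOD1 and 61.5 ± 32.4 times in cWT_SOD1, against 74.1 ± 5.40 times in cKO and 74.3 ± 10.7 times in cWT. That ratio was 107 in replicate 1 of cWT_SOD1 and 32.1 to 58.9 in the other 3 libraries. In those 3 libraries Igf1 had more FPKM per CPM than in cWT, which lowers the ratio there.

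**Figure D3:**
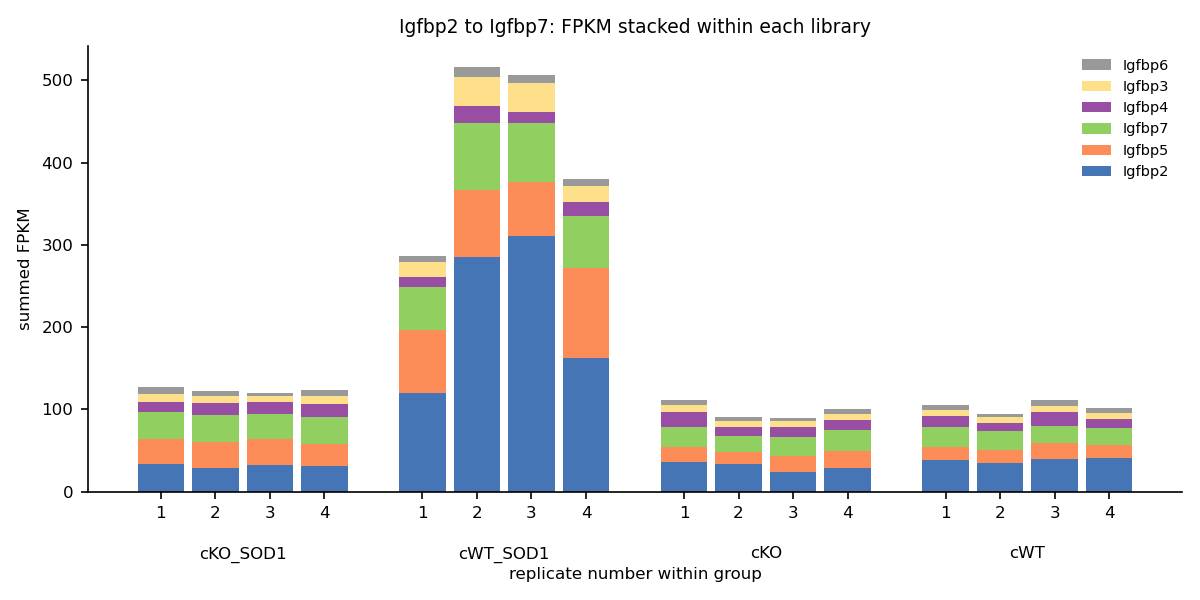
FPKM of Igfbp2 to Igfbp7 stacked within each library (y axis, summed FPKM, from 0), with 4 libraries a group on the x axis. The cWT_SOD1 bars reach 286 to 517 FPKM, with Igfbp2 the largest piece, and those of cKO_SOD1 reach 119.7 to 126.7 FPKM.

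The order of the genes by FPKM also differed between groups. In cWT it ran Igfbp2, Igfbp7, Igfbp5, Igfbp4, Igf1r, Igfbp3, Igfbp6, Igf1 and Igfbpl1, at 38.0, 22.1, 17.2, 13.0, 7.75, 7.03, 5.73, 1.41 and 0.09 FPKM. The neighbours Igfbp5 and Igfbp4, Igf1r and Igfbp3, and Igfbp3 and Igfbp6 overlapped there. In cKO the order was the same, each of the first 4 genes overlapped its neighbour, and so did Igf1r and Igfbp3. In cWT_SOD1 Igfbp2 led alone at 219 FPKM, Igfbp5 at 83.6 and Igfbp7 at 67.2 FPKM overlapped, Igfbp3 at 26.7 and Igfbp4 at 15.9 FPKM overlapped, and Igfbp6, Igfbpl1, Igf1r and Igf1 lay between 8.48 and 9.57 FPKM with each overlapping the next. In cKO_SOD1 Igfbp7, Igfbp2 and Igfbp5 overlapped at 32.3, 31.6 and 30.0 FPKM, and Igf1 at 2.35 and Igfbpl1 at 0.42 FPKM stood last and apart.

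Summed markers of microglia, astrocytes and fibroblasts were higher in every cWT_SOD1 library than in any other library. The 10 microglial markers summed to 829 to 892 CPM in cKO_SOD1 and 2321 to 3856 CPM in cWT_SOD1, against 394 to 537 CPM in cKO and 410 to 461 CPM in cWT, and 10 of 10 were higher in cWT_SOD1 than in cWT and 8 of 10 in cKO_SOD1 than in cKO. The 10 astrocyte markers summed to 12130 to 12640 CPM in cKO_SOD1 and 20470 to 25440 CPM in cWT_SOD1, against 8104 to 8904 CPM in cKO and 8340 to 8752 CPM in cWT. Of these, 7 of 10 were called higher in cWT_SOD1 than in cWT and 3 of 10 in cKO_SOD1 than in cKO. Fibroblast markers summed to 301 to 372 CPM in cKO_SOD1 and 488 to 856 CPM in cWT_SOD1, against 237 to 281 CPM in cKO and 222 to 269 CPM in cWT. In the same 2 comparisons 8 of 10 and 1 of 10 of them were called higher. No marker of these 3 lists was at 0 in any group. Oligodendrocyte markers summed to 25180 to 29170 CPM in cKO_SOD1 and 20930 to 25010 CPM in cWT_SOD1, against 26100 to 28580 CPM in cKO and 25420 to 29050 CPM in cWT. The part of these markers in the differences of the 9 genes was not tested.

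Per 1000 CPM of summed microglial markers, Igf1 stood at 16.9 to 19.0 CPM in cKO_SOD1 and 7.58 to 18.6 CPM in cWT_SOD1, against 18.0 to 21.8 CPM in cKO and 20.6 to 25.6 CPM in cWT. Igf1 was thus higher in cWT_SOD1 by less than the microglial markers were, in every library of that group. Per 1000 CPM of astrocyte markers, Igfbp2 stood at 2.55 to 3.14 CPM in cKO_SOD1 and 6.33 to 14.3 CPM in cWT_SOD1, against 3.09 to 4.76 CPM in cKO and 4.68 to 5.36 CPM in cWT. Igfbp5 stood at 12.02 to 14.9 CPM per 1000 CPM in cKO_SOD1 and 15.3 to 27.6 CPM in cWT_SOD1, against 9.97 to 13.5 CPM in cKO and 10.7 to 13.6 CPM in cWT. For both binding proteins every cWT_SOD1 library was above every cWT library on this scale. Which cells made these RNAs was not measured, so such ratios do not separate cell number from RNA per cell.

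**Figure D4:**
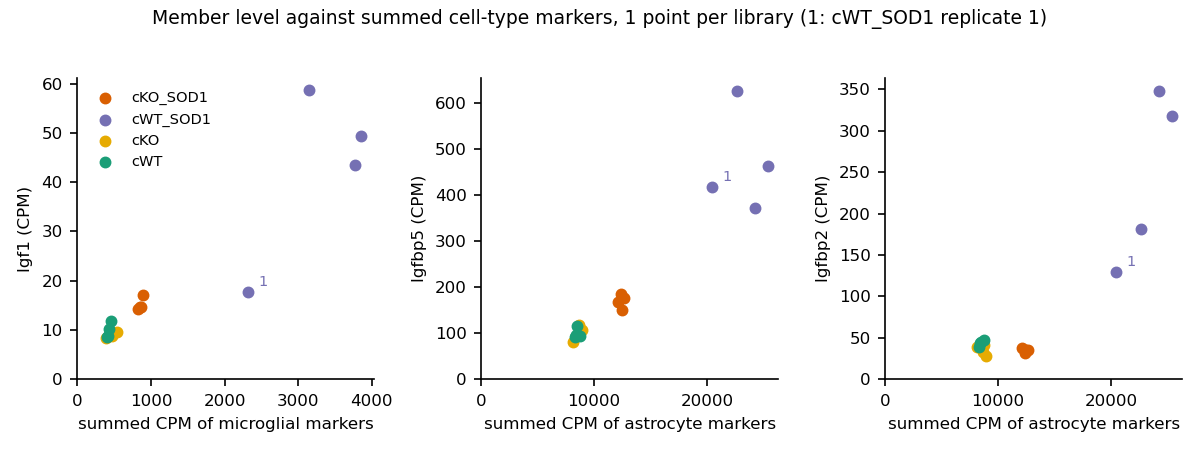
Level of Igf1 against summed microglial markers, and of Igfbp5 and Igfbp2 against summed astrocyte markers (all CPM, linear axes from 0), with 1 point per library coloured by group. Replicate 1 of cWT_SOD1 is marked 1 and has 17.6 CPM of Igf1 at 2321 CPM of microglial markers, and the cKO_SOD1 points of Igfbp2 lie at 31.6 to 38.1 CPM, within the range of cKO and below the 39.0 to 46.9 CPM of cWT.

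The genes whose log2 CPM followed each member most closely over the 16 libraries were found among the 14355 genes tested whose mean reached 1 CPM. The libraries fall into groups, with cWT_SOD1 apart, so these Pearson correlations include that split, and no p-value is given. Closest to Igf1 were Lasp1 (r = 0.976), Ybx1 (0.974), Rgs19 (0.971), Lamp1 (0.971) and Serp1 (0.969). Closest to Igfbp2 were Gm2a (0.991), Acsbg1 (0.987) and Serpine2 (0.985), to Igfbp3 Galc (0.986), Il4ra (0.986) and Dhrs4 (0.983), and to Igfbp5 Dhrs1 (0.983), Hpgd (0.980) and Plau (0.980). For Igfbp7 the closest were Itgb5 (0.992) and Inpp5d (0.991), and for Igfbpl1 Il13ra1, B2m and Tmed10 (all 0.989). The members whose groups overlapped had looser matches, from 0.892 for Igf1r with St6galnac2 to 0.768 for Igfbp4 with Kdm5c, while Igfbp6 reached 0.933 with Islr.

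The rest of the pathway was read from 8 lists written from general knowledge of IGF signalling, with 95 genes of which 87 could be tested. Here adjusted p-values come from edgeR's quasi-likelihood test over all 15426 genes. For cWT_SOD1 against cWT 35 of the 87 were higher and 30 lower, beside the 33.2% and 33.1% of all genes, with a median log2 fold change of 0.06 beside 0.01. For cKO_SOD1 against cKO 5 were higher and 4 lower, beside 4.80% and 2.48% of all genes, and for cKO_SOD1 against cWT_SOD1 27 were higher and 31 lower, beside 29.1% in each direction. In cKO against cWT only Mmp9, a matrix metalloprotease able to cut binding proteins, passed. It had 11.9 ± 0.99 CPM in cKO and 21.0 ± 0.55 CPM in cWT (log2 fold change −0.81, adjusted p = 0.000177). Mmp9 is also among the 10 motor neuron markers whose counts of calls are given further down. Of these markers 2 were lower in cKO than in cWT, Mmp9 itself among them.

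Of the 4 other ligands and receptors tested, 2 were higher and none lower in cWT_SOD1 than in cWT. Ghr, the growth hormone receptor, was 1.45-fold higher in cWT_SOD1 than in cWT (adjusted p = 0.000111) and lower in cKO_SOD1 than in cWT_SOD1, at 19.3 ± 0.70 CPM and 28.7 ± 4.20 CPM (log2 fold change −0.58, adjusted p = 6.81e-05). Insr, the insulin receptor, was 1.20-fold higher in cWT_SOD1 than in cWT (adjusted p = 0.000479). Igf2, the other IGF ligand, had 66.7 ± 8.08 CPM in cKO_SOD1 and 44.3 ± 3.60 CPM in cWT_SOD1, against 48.0 ± 12.8 CPM in cKO and 48.8 ± 9.86 CPM in cWT. Its log2 fold change for cKO_SOD1 against cWT_SOD1 was 0.59 (adjusted p = 0.00504). Its interaction of 0.61 (adjusted p = 0.0387) was lost in 9 of the 16 fits that left out 1 library, with limma-voom weighted by group and on unfiltered log2(FPKM + 0.1). Ins1 and Ins2 had 0 counts in every library.

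Among the other IGF binders and the proteases that cut binding proteins, 6 of 11 were higher and 3 lower in cWT_SOD1 than in cWT, and 2 were higher and 6 lower in cKO_SOD1 than in cWT_SOD1. Ctsd, the lysosomal protease cathepsin D, had 1012 ± 49.2 CPM in cKO_SOD1 and 5018 ± 1306 CPM in cWT_SOD1, against 525 ± 39.3 CPM in cKO and 509 ± 28.8 CPM in cWT. It was 9.87-fold higher in cWT_SOD1 than in cWT (adjusted p = 1.33e-11) and 1.93-fold higher in cKO_SOD1 than in cKO (adjusted p = 0.00029). Adamts1, another metalloprotease, was 3.78-fold higher in cWT_SOD1 than in cWT and 1.33-fold higher in cKO_SOD1 than in cKO (adjusted p = 2.87e-10 and 0.0359). The second call was lost in 5 of the 16 fits that left out 1 library, with a replicate block and on unfiltered log2(FPKM + 0.1). Mmp9 fell under the transgene in both genotypes, to 6.31 ± 0.71 CPM in cKO_SOD1, against 11.9 ± 0.99 CPM in cKO (adjusted p = 7e-06), and to 4.14 ± 0.38 CPM in cWT_SOD1, against 21.0 ± 0.55 CPM in cWT (adjusted p = 4.72e-12). The motor neuron list, which holds Mmp9, had 9 of 10 genes lower in the first comparison and 10 of 10 in the second. The part of motor neurons in the fall of Mmp9 was not tested. Pappa, the protease of IGFBP4, was lower in cKO_SOD1 than in cKO, at 16.7 ± 2.21 CPM and 23.1 ± 1.41 CPM (log2 fold change −0.47, adjusted p = 0.0167), a call lost in 3 of those 16 fits and on the 3 FPKM scales.

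Proteins that share the IGF-binding domain without belonging to the family changed in both directions, 4 of 9 higher and 2 lower in cWT_SOD1 than in cWT. Cyr61, a matricellular protein, had 7.22 ± 1.87 CPM in cKO_SOD1 and 61.3 ± 29.4 CPM in cWT_SOD1, against 4.003 ± 0.81 CPM in cKO and 3.57 ± 0.72 CPM in cWT, and was 17.2-fold higher in cWT_SOD1 than in cWT (adjusted p = 6.6e-09). Wisp2, of the same class, had 1.17 to 1.49 CPM in cKO_SOD1 and 13.0 to 33.0 CPM in cWT_SOD1, against 0 to 0.28 CPM in cKO and 0 to 0.17 CPM in cWT, too few counts in the last 2 groups for a fold change. Crim1, a transmembrane protein with this domain, was lower in cWT_SOD1 than in cWT, at 90.5 ± 3.07 CPM and 133 ± 2.46 CPM (log2 fold change −0.55, adjusted p = 5.14e-09).

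Adaptors and inhibitors at the receptor were 5 higher and 4 lower of 13 in cWT_SOD1 against cWT. Socs3, an inhibitor of cytokine and insulin signalling, had 4.83 ± 1.11 CPM in cKO_SOD1 and 22.5 ± 5.44 CPM in cWT_SOD1, against 1.65 ± 0.26 CPM in cKO and 1.59 ± 0.45 CPM in cWT. It was 14.2-fold higher in cWT_SOD1 than in cWT (adjusted p = 1.61e-10) and 2.92-fold higher in cKO_SOD1 than in cKO (adjusted p = 0.000374). Grb10, an adaptor that restrains the receptor, was at 108 ± 4.98 CPM in cKO_SOD1 and 72.0 ± 1.49 CPM in cWT_SOD1, against 111 ± 5.47 CPM in cKO and 106 ± 2.95 CPM in cWT (adjusted p = 1.03e-08 for cWT_SOD1 against cWT). Irs1 and Irs2, the substrates that carry the signal to PI3K, named after their values were seen, had 33.6 ± 2.17 CPM and 66.1 ± 14.7 CPM in cWT_SOD1 against 34.6 ± 1.43 CPM and 70.2 ± 7.76 CPM in cWT, within the spread between animals.

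The PI3K-AKT-mTOR list had more genes lower than higher in cWT_SOD1 against cWT, 13 of 21 against 3, with a median log2 fold change of −0.23. The counts were turned round for cKO_SOD1 against cWT_SOD1, 13 higher and 3 lower, a comparison that shares the cWT_SOD1 libraries. Deptor, an inhibitor of mTOR, had 23.3 ± 0.65 CPM in cKO_SOD1 and 14.2 ± 0.50 CPM in cWT_SOD1, against 25.2 ± 0.76 CPM in cKO and 24.8 ± 2.04 CPM in cWT (adjusted p = 6.32e-09 for cWT_SOD1 against cWT). Eif4ebp1, the repressor of translation that mTOR switches off, was 7.33-fold higher in cWT_SOD1 than in cWT (adjusted p = 8.05e-08). The neuronal markers, 11 of 11 lower in cWT_SOD1 than in cWT and summing to 4238 to 6290 CPM there against 12200 to 12910 CPM in cWT, moved with this list, and their part in it was not tested.

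On the RAS-MAPK list 1 of 9 genes was higher and 6 lower in cWT_SOD1 than in cWT. Nras, a RAS GTPase, was the higher one (1.60-fold, adjusted p = 1.38e-08), and Hras1, listed under its older symbol, was lower at 49.4 ± 4.26 CPM in cWT_SOD1 and 77.3 ± 5.04 CPM in cWT (adjusted p = 6.44e-08). Of the FoxO factors, which AKT keeps out of the nucleus, and their target genes, 7 of 12 were higher and 2 lower. Foxo1 was 2.12-fold higher in cWT_SOD1 than in cWT (adjusted p = 2.56e-06), and Bnip3, a mitophagy receptor, was lower at 55.5 ± 3.71 CPM in cWT_SOD1 and 84.3 ± 5.94 CPM in cWT (adjusted p = 5.3e-08). Bnip3 was also lower in cKO_SOD1 than in cKO (log2 fold change −0.23, adjusted p = 0.0151), a call lost without replicate 1 or 2 of cKO.

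The last list holds proteins that bind Igf2 mRNA and integrins and other receptors of the binding proteins, and 7 of its 8 genes were higher and none lower in cWT_SOD1 than in cWT. Itga5, which with Itgb1 forms an integrin that IGFBP2 can bind, had 6.45 ± 1.25 CPM in cKO_SOD1 and 31.0 ± 8.47 CPM in cWT_SOD1, against 2.92 ± 0.41 CPM in cKO and 2.39 ± 0.37 CPM in cWT. It was 13.0-fold higher in cWT_SOD1 than in cWT (adjusted p = 1.23e-10) and 2.20-fold higher in cKO_SOD1 than in cKO (adjusted p = 0.00225). Itgb1 had 142 ± 3.36 CPM in cKO_SOD1 and 239 ± 19.9 CPM in cWT_SOD1, against 133 ± 6.49 CPM in cKO and 134 ± 2.10 CPM in cWT, and its interaction was −0.75 (SE 0.08, adjusted p = 2.38e-06).

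**Figure D5:**
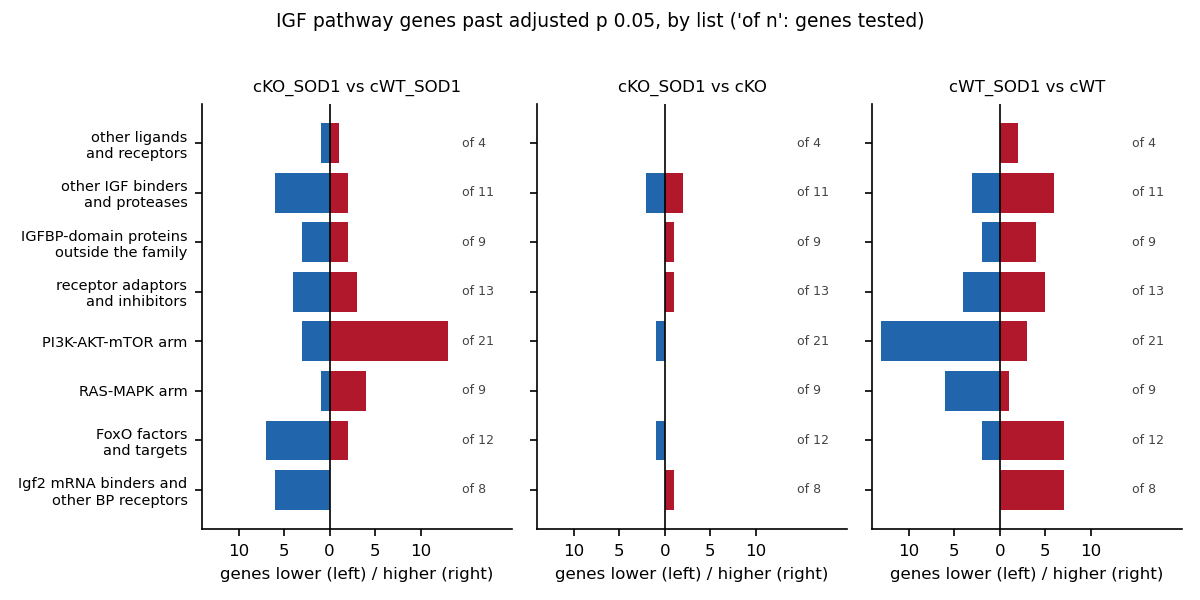
Number of genes of each of the 8 IGF pathway lists that passed an adjusted p of 0.05 in 3 comparisons, lower to the left and higher to the right of 0, with the number tested printed at the right of each bar. The PI3K-AKT-mTOR list has 3 higher and 13 lower for cWT_SOD1 against cWT and 13 higher and 3 lower for cKO_SOD1 against cWT_SOD1. For cKO_SOD1 against cKO, at most 2 genes of a list passed as higher and at most 2 as lower.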

How the data were processed

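Per the labels' protocols, Trizol and RNeasy extraction was followed by poly-A selection and Illumina TruSeq libraries. The submitters' processing notes name mm9 and the tools Cufflinks (2.0.2), TopHat2 (2.0.4) and bcl2fastq (1.8.4). The counting tool is not given in the sources used here, nor is its use of strand. The authors deposited raw counts of 23284 genes, with totals of 14989026 to 20892530 per library, and FPKM values, identical in both deposited sources. Where reads of overlapping or similar genes went is therefore not known.

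Counts were tested with edgeR 4.0.16 (quasi-likelihood F-test, TMM, default filterByExpr, all 16 libraries in 1 fit with a coefficient per group), which left 15426 genes, all 9 members among them, in R 4.3.3. Calls were made at 0.05 after Benjamini-Hochberg adjustment over all of them. A standard error is the log2 fold change divided by the root of F. Alternatives used limma 3.58.1 and DESeq2 1.42.0. The procedure was tested on simulated counts. The members and lists were chosen with earlier results of these data known. By rule, up to 4 called genes per list and comparison with the smallest p could be named, and fewer are given, a choice made after seeing the results. Replicate numbers were not found to pair the animals. A result that needs a withheld item is not reported here.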

Additional observations from a re-analysis of the deposited data

Results flagged for a closer look

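The transgene difference differed between the Atg7 genotypes (interaction term of the fit over all genes, log2 scale, cKO minus cWT) for several genes of the family. It was −1.38 for Igf1, −2.49 for Igfbp2, −1.76 for Igfbp3, −1.52 for Igfbp5, −1.15 for Igfbp7 and −4.48 for Igfbpl1, which are descriptions, since these genes were chosen on the same groups. Igfbpl1 had too few counts without the transgene for the size of its interaction to be read.

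Of the 87 pathway genes tested, 22 had a positive and 28 a negative interaction past an adjusted p of 0.05, beside 23.2% and 21.8% of all genes. Only those examined one by one are listed here. Among them, negative interactions were −0.63 for Ghr, −0.21 for Insr, −1.51 for Adamts1, −2.45 for Eif4ebp1, −2.35 for Ctsd, −3.24 for Cyr61, −2.28 for Socs3, −0.56 for Nras, −0.95 for Foxo1, −0.75 for Itgb1 and −2.56 for Itga5. Wisp2 also had a negative one (−5.24, SE 1.25), but had too few counts without the transgene for its size to be read. It ran from −6.54 with 1 library left out to −2.95 in another setting. Positive interactions were 0.61 for Igf2, 1.42 for Mmp9, 0.41 for Crim1, 0.52 for Grb10, 0.69 for Deptor, 0.50 for Pdpk1, 0.46 for Hras1 and 0.37 for Bnip3.

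Single libraries lay far from the other 3 of their group for 4 genes. Igfbp5 had 115.8 CPM in replicate 3 of cWT against 92.3 to 96.3 CPM in the others. Mmp9 had 10.5 CPM in replicate 3 of cKO against 12.2 to 12.6 CPM. Nras had 71.8 CPM in replicate 4 of cWT against 62.6 to 63.9 CPM. Bnip3 had 61.1 CPM in replicate 3 of cWT_SOD1 against 53.5 to 53.8 CPM. These are 4 of 136 groups examined, and chance gives about 1 in 20.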

How the results depend on the processing

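No called difference among the 45 member and 70 pathway results recomputed changed sign in an alternative, and scaling moved the median of all genes by at most 0.02 on the log2 scale. For cKO_SOD1 against cKO the count over all genes was 1123, with 2264 by limma-voom weighted by group, 2480 with only the 8 libraries of the comparison, and 685 to 1643 when 1 library was left out. Pathway calls there numbered 9, with 15 and 19 in those 2 settings and 6 to 13 with 1 library left out, and member calls numbered 3, with 1 to 4. For cKO against cWT the 4 calls became 17 with DESeq2, 10 with limma-voom weighted by group, 2 on log2(FPKM + 0.1), 9 with only the 8 libraries, and 2 to 9 with 1 library left out. The cause was not tested.

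Correlations of deviations from the group means between libraries of the same replicate number ran from −0.25 to 0.30. They were not above 0.1 for every pair in any comparison, so the numbers were not taken as pairs. Replicate 4 had 0.16 to 0.28 in all 4 comparisons, each between libraries of the same sex. Every pair of unlike sex had a negative value. A replicate block gave 10204 calls for cWT_SOD1 against cWT, 1158 for cKO_SOD1 against cKO, 4 for cKO against cWT, 9018 for cKO_SOD1 against cWT_SOD1 and 6936 for the interaction. For the genes named in the report, other calls that changed are given beside them in the report, but for the interaction of Ghr, which did not pass on the 3 FPKM scales, that of Insr, lost in 9 of 16 fits without 1 library, with a replicate block (−0.21), with no filter and on unfiltered log2(FPKM + 0.1), and for Igfbp6 and Igf1r in cKO_SOD1 against cWT_SOD1, which passed in 5 and 1 of the alternatives. At these depths Igfbp1, Igfals and Igfbpl1 without the transgene were limited by counting error.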

Other observations

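Marker lists of the cells of the cord give the setting of these genes. For cWT_SOD1 against cWT, calls were higher for 10 of 10 microglial, 10 of 10 disease-associated microglial, 7 of 10 astrocyte, 8 of 10 fibroblast and 5 of 5 oligodendrocyte precursor markers, and lower for 11 of 11 neuronal and 10 of 10 motor neuron markers. Oligodendrocyte markers were 1 higher and 5 lower of 9. Vascular lists moved less, with 1 higher and 1 lower of 9 endothelial markers and 4 higher and 1 lower of 9 pericyte and smooth muscle markers. Ependymal markers were higher for 3 of 7 and Schwann cell markers for 3 of 6, with none lower. Of the infiltrating myeloid and T cell list 4 of 9 genes passed the filter and 1 was higher, and of the muscle list 2 of 5 passed it and none was called.

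For cKO_SOD1 against cKO the counts were 8 of 10 microglial, 9 of 10 disease-associated microglial, 3 of 10 astrocyte and 1 of 10 fibroblast markers higher, and 6 of 11 neuronal and 9 of 10 motor neuron markers lower. The motor neuron list summed to 315 to 401 CPM in cKO_SOD1 and 254 to 339 CPM in cWT_SOD1, against 610 to 674 CPM in cKO and 666 to 828 CPM in cWT.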
